A study of Mus musculus with 42 samples.

Results

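The genes described here encode subunits of the mitochondrial respiratory chain and ATP synthase that are read from nuclear DNA, and 8 assembly factors of complex I. They were taken as the rows of the count tables whose symbol begins with Nduf followed by a, b, c, s or v, with Cox and a digit from 4 to 8, with Uqcr or with Atp5, or is Sdha, Sdhb, Sdhc or Sdhd, leaving out symbols that contain -ps. This gave 92 of 18825 genes in the table of experiment 1 and 94 of 19866 in that of experiment 2, and 92 genes stand in both tables, of 20071 genes in the series. Cox7b2 and Cox8c are the members found in experiment 2 alone, while Cox6a2 and Cox8b are not analysed here. Sorted by symbol alone, 41 genes were counted with complex I, 8 (the Ndufaf genes) with its assembly, 4 with complex II, 8 with complex III, 16 with complex IV and 17 with complex V. All 92 and all 94 passed the filter on low counts. The smallest total of a member over all libraries was 868 counts in experiment 1 and 248 in experiment 2.

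RNA immunoprecipitation and sequencing was done in mouse embryonic stem cells of the 129S6/SvEvTac strain. By the growth protocol all groups share the GFP_5xT71BS reporter and a stably transfected FLAG-Cas9 with blasticidin resistance. Cells were grown on gelatin with LIF in triplicate dishes, and lysates were incubated with anti-HA magnetic beads. Bead-bound RNA (IP) and lysate RNA (input) were sequenced with a stranded total RNA kit in 42 libraries, 3 per group. Untagged cells have no HA tag and show what beads retain without it. Tagged cells carry HA-AVI-Tnrc6a, the cells labelled Trim71KO carry HA-AVI-Tnrc6a and are Trim71-/-, and the cells labelled Ago2KO carry HA-AVI-Tnrc6a and are Ago2-/-. Experiment 1 holds the first 3 kinds of cell and experiment 2 holds all 4. The labels do not say how many clones each line represents, and the triplicate dishes may be technical repeats of a line, in which case the p-values measure the spread between dishes. The question is which RNAs Tnrc6a holds, and whether Trim71 or Ago2 changes this.

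Tnrc6a is a GW182 protein, the partner through which Argonaute proteins loaded with microRNAs silence mRNAs. The respiratory chain passes electrons from NADH (complex I) and succinate (complex II) through complex III to oxygen at complex IV, and complex V uses the resulting proton gradient to make ATP. Most subunits are made in the cytosol from nuclear genes, many from short and abundant housekeeping mRNAs, and are imported to join a few core subunits read from mitochondrial DNA. Embryonic stem cells make much of their ATP by glycolysis but still keep the chain.

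Promoters of these genes are known for sites of NRF1, YY1 and ETS factors, so a promoter of each kind is shown. All 94 genes matched RefSeq, on 19 chromosomes, and 77 have a window of 300 bases around the gene start in the RefSeq promoters of GRCm38.p6. The windows were searched on both strands for GCGCA followed directly by TGCGC (NRF1), AAGATGGC (YY1) and CCGGAAGT (ETS). Capitals mark the match, written as GCCATCTT or ACTTCCGG where it lies on the other strand.
Uqcrc1, chr9:108936398-108936697, plus strand, NRF1: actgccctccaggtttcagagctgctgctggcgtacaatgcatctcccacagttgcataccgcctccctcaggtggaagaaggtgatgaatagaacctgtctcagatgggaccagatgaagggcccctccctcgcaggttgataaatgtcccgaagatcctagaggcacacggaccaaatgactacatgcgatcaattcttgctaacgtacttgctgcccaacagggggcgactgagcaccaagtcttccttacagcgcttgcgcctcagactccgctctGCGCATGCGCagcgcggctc
Ndufc1, chr3:51408906-51409205, minus strand, YY1: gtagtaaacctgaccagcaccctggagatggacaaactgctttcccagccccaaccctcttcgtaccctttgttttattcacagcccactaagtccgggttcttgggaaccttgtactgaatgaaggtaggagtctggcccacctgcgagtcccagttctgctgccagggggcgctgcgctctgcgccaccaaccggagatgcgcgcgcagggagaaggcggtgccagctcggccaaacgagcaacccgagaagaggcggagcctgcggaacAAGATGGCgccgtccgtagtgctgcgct
Uqcrh, chr4:116075021-116075320, minus strand, ETS: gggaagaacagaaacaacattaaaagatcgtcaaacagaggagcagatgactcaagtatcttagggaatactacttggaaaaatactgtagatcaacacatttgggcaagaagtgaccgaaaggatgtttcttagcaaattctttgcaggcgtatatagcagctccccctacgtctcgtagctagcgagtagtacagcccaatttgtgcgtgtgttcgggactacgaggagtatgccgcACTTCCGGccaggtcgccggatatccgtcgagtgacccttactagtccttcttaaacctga
The NRF1 letters stood in any window of 7 of the 77 genes (9.09%), against 1.07% of 27025 genes with windows. The YY1 letters did so for 11 of the 77 genes (14.3%) against 3.19%, and the ETS letters for 5 (6.49%) against 4.31%. A match is a description of the letters and shows no binding. The genes of these 3 promoters also differ in their values below. The mRNA of Ndufc1 (complex I) was called lower in the tag-specific IP of both experiments, as was that of Uqcrh, the complex III hinge protein, while that of Uqcrc1, a core protein of complex III, was called lower in experiment 1 alone.

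Total counts ran from 12587257 to 23657840 per library in experiment 1 and from 16296447 to 21026552 in experiment 2, and the members took 0.520% to 1.41% and 0.760% to 1.18% of them. Tnrc6a mRNA itself stood at 89.6 to 94.0 CPM (counts scaled to library size) in untagged IP and at 19643 to 29473 CPM in tagged IP of experiment 1, and at 74.2 to 90.4 and 12945 to 24216 CPM in experiment 2. Ago2 input RNA was 321 to 390 CPM in tagged and 158 to 167 CPM in Ago2KO cells. Trim71 input RNA stood at 227 to 265 CPM in tagged and 278 to 284 CPM in Trim71KO cells of experiment 1, so it was not lower. The labels do not say where Trim71 was altered, so its RNA level does not decide whether that label holds. These are therefore the libraries labelled Trim71KO throughout. The 9 stem cell markers (Pou5f1, Nanog, Sox2, Zfp42, Esrrb, Klf4, Tdgf1, Dppa5a, Utf1) summed to 6739.7 or more CPM in every input library. Neural markers (Pax6, Sox1, Tubb3; 3 of 4 listed) summed to 74.1 to 100.3 CPM over both experiments, mesoderm markers to 4.39 to 15.3 CPM and trophoblast markers to 5.29 to 16.7 CPM. In experiment 1, tagged input replicate 2 stood apart: its median member lay 0.36 above untagged input on the log2 scale, against -0.05 and 0.14 in the other two.

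In input RNA the members differed widely in level. By the authors' RPKM (reads scaled to gene length and library size), which allows genes of different length to be compared, the catalytic ATP synthase subunit Atp5b ranked first in untagged cells at 426 ± 4.59 (SD, n = 3) in experiment 1 and 404 ± 6.21 in experiment 2. Its partner Atp5a1 followed at 301 ± 3.06 and 308 ± 8.24, then the complex IV subunit Cox8a at 256 ± 9.39 and 213 ± 7.59. Below these stood Cox4i1, the regulatory complex IV subunit, at 182 ± 2.5 and 175 ± 11.1 RPKM. Assembly factors were low, from 4.65 ± 0.38 (Ndufaf2) to 15.5 ± 0.756 (Ndufaf8) in experiment 1.
Isoforms of complex IV known from other tissues stood below their general counterparts. The hypoxia isoform Cox4i2 stood at 4.54 ± 0.504 and 8.31 ± 0.745 RPKM, far under Cox4i1. The muscle isoform Cox7a1 stood at 12.1 ± 0.883 RPKM in experiment 1 against 89.3 ± 1.76 for the general isoform Cox7a2. Cox6b2, an isoform known from testis, stood at 20.0 ± 0.89 and 31.7 ± 3.46 RPKM against 165 ± 10.0 and 134 ± 3.69 for Cox6b1. The testis isoforms Cox8c (1.24 ± 0.117) and Cox7b2 (0.563 ± 0.36) were close to the limit of detection in experiment 2. Ndufa4l2, a hypoxia-responsive relative of Ndufa4, stood at 7.24 ± 3.82 RPKM in experiment 1 and 45.3 ± 4.53 in experiment 2, but the tables were normalized separately and this difference was not tested. Reads of Ndufb4 and Ndufb4c, of Ndufb11 and Ndufb11b, and of the many processed copies of these genes may have been shared in counting, so such values are uncertain.

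By TMM-scaled CPM, anti-HA beads retained respiratory chain mRNA from untagged cells about in proportion to the lysate, but this depends on the scaling. As a share of all counts, the members took 1.01% to 1.06% in untagged IP and 1.23% to 1.26% in untagged input of experiment 1. In experiment 2 these shares were 1.15% to 1.18% and 1.11% to 1.14%. Summed over the members, untagged IP libraries held 11892 to 12121 CPM in experiment 1 and 11111 to 11919 CPM in experiment 2, beside 10860.3 to 11034 and 10258 to 10532 CPM in untagged input. The ratio of IP to input in untagged cells was called higher (edgeR adjusted p under 0.05 over all genes) for 6 of 92 members in experiment 1, where 7.21% of all 18772 genes tested were called higher and 4.9% lower, and for 2 of 94 in experiment 2, where 0.45% of 19778 were called higher and 0.278% lower. No member was called lower (0 in edgeR in both experiments, with 4 and 0 members lower at an unadjusted p under 0.05, and 0 with DESeq2).
Among those called in experiment 1 were Uqcrc2 (0.71), a core protein of complex III, the complex I accessory subunit Ndufa12 (0.67), the small ATP synthase subunit Atp5md (0.66), Ndufv1 (0.29), which binds NADH, and Uqcrc1 (0.26). In experiment 2 the calls included the complex I accessory subunit Ndufb3 (0.33, SE 0.07, edgeR adjusted p 0.0122). With library size alone as scaling, 57 members were called lower and 2 higher in experiment 1, with the median of all genes at -0.42 in place of -0.03, so the direction of Ndufv1 there depends on the scaling (-0.10, edgeR adjusted p 0.395). Its call also ended on removal of any 1 of the 6 libraries (values from 0.25 to 0.31), and that of Ndufb3 in experiment 2 on removal of 2 of 6. In experiment 1 the calls of Ndufa12 and Atp5md each ended in 1 of 7 other settings of the fit, with lowest values of 0.27 and 0.26. The call of Uqcrc1 was not followed through these settings. In experiment 2 the count was 0 without untagged input replicate 2 or untagged IP replicate 1, 1 without untagged input replicate 1 or 3 or untagged IP replicate 3, and 5 without untagged IP replicate 2.

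Respiratory chain mRNA made up a smaller share of the RNA in tagged than in untagged IP, and the amount of RNA recovered is not measured by these values. In experiment 1, 81 of 92 members fell in tag-specific enrichment, that is, in the IP to input ratio of tagged cells set against that of untagged cells, and 0 rose (edgeR; 0 also at an unadjusted p under 0.05 and with DESeq2). Of all genes 28.8% were called lower and 28.1% higher. In experiment 2, 49 of 94 fell and 1 rose, where 8.77% of all genes were called lower and 18.9% higher. The median member lay at -1.03 on the log2 scale in experiment 1, a 2.04-fold lower ratio, against -0.10 for all genes. In experiment 2 it lay at -0.30, or 1.23-fold lower, against -0.03 for all genes. The 49 members that fell in experiment 2 all fell in experiment 1 too, which is 60.5% of the calls in experiment 1 and 98% of those in experiment 2. Each experiment has its own untagged and tagged libraries.
The shift is also visible in the levels of single libraries, given as TMM-scaled CPM. Tagged IP libraries of experiment 1 held 6292, 7199.5 and 6288 CPM of member mRNA in sum, below every untagged IP library, while the tagged input libraries held 10593, 13202 and 11916 CPM. In experiment 2 the tagged IP libraries held 9207, 9529 and 9681 CPM, again below every untagged IP library, and the tagged inputs held 9908, 10511 and 10219.9 CPM. Taken gene by gene, the 3 tagged IP libraries lay below the 3 untagged ones for 82 of 92 members in experiment 1 and for 78 of 94 in experiment 2. This was so for 37.3% and 23.8% of all genes.

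**Figure D1:**
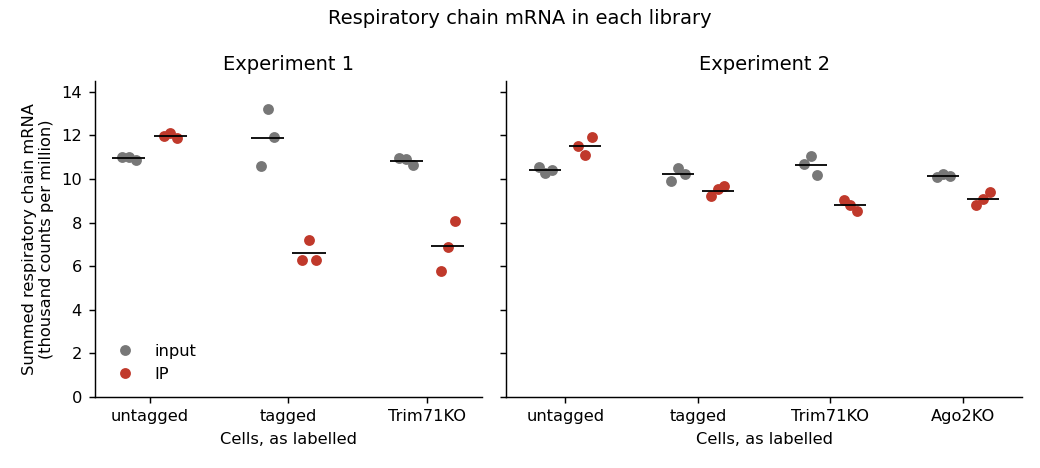
Summed level of the respiratory chain genes in each library (CPM, drawn in units of 1000, vertical axis) by kind of cell for experiment 1 (left) and experiment 2 (right), with input in grey, IP in red and the group mean as a line. IP of tagged cells, with or without a knockout label, lies below IP of untagged cells in both experiments, from 5776 to 8066 CPM against 11892 to 12121 CPM in experiment 1.

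Every complex shared in the shift. In experiment 1, 35 of 41 complex I members fell (median -1.10), 6 of 8 assembly factors (-0.82), 4 of 4 complex II members (-0.81), 8 of 8 complex III members (-1.05), 12 of 14 complex IV members (-0.96) and 16 of 17 complex V members (-1.10). In experiment 2 the counts were 19 of 41 (-0.28), 2 of 8 (-0.17), 1 of 4 (-0.19), 6 of 8 (-0.34), 8 of 16 (-0.39) and 13 of 17 (-0.29). Complexes were not tested against each other.

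**Figure D2:**
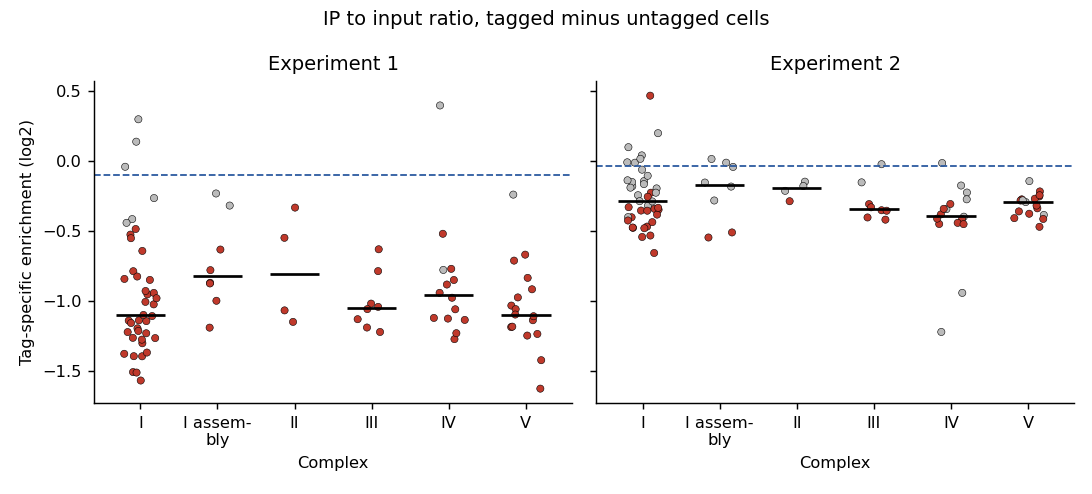
Tag-specific enrichment of each member (log2, vertical axis) by complex in experiment 1 (left) and experiment 2 (right). Red points were called at an edgeR adjusted p under 0.05, grey points were not, black bars are medians of the members of a complex and the dashed line is the median of all genes (-0.10 and -0.03). Nearly all points of experiment 1 lie below the dashed line, with complex medians from -1.10 to -0.81, and the shift is smaller in experiment 2.

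Among the members that fell in both experiments, the complex I accessory subunit Ndufa1, which lies in the membrane arm, moved most by the smaller of its changes. It read 6.93, 9.07 and 8.44 CPM in tagged IP of experiment 1 against 16.2, 21.2 and 17.1 CPM in untagged IP, with tagged input at 20.1, 32 and 25 CPM. In experiment 2 tagged IP read 13.8, 17.9 and 16.4 CPM against 27.2, 23.3 and 24.8 CPM in untagged IP. The IP groups did not overlap in either experiment. Its log2 change was -1.39 (SE 0.36, edgeR adjusted p 0.00207) and -0.66 (SE 0.16, edgeR adjusted p 0.00193). Next came the assembly factor Ndufaf2 (-1.19 and -0.54), the accessory subunits Ndufb1 (-1.10 and -0.54) and Ndufc2 (-1.26 and -0.53), and another assembly factor, Ndufaf8 (-0.87 and -0.51), whose call stood in 7 of 12 cases with 1 library removed in experiment 1 and in 4 of 12 in experiment 2.
The largest changes of experiment 1 were those of Atp5md (-1.63, SE 0.21, edgeR adjusted p 4.1e-07), Ndufa12 (-1.57), Ndufc1 (-1.51), Ndufb3 (-1.51) and the ATP synthase stalk subunit Atp5h (-1.42). Atp5md (0.66) and Ndufa12 (0.67) were also called higher in IP than input of untagged cells, a ratio that this comparison subtracts. Ndufc1, Ndufb3 and Atp5h were not called there. Within tagged cells, Atp5md averaged 45.8 CPM in IP and 89.7 CPM in input, and Ndufa12 33.9 and 63.2 CPM. Atp5md read 102, 103 and 109 CPM in untagged IP and 45.8, 48.4 and 43.1 CPM in tagged IP of experiment 1. In experiment 2 it read 56.9, 59.6 and 67.1 CPM against 46.2, 56.3 and 49.5 CPM. The groups are also separate there, but by little, and it was not called (-0.28, SE 0.12, edgeR adjusted p 0.084).

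Of 20 subunits listed as core, 19 fell in experiment 1 and 8 in experiment 2. For complex IV that list holds the nuclear-encoded Cox4i1, Cox5a and Cox5b, which are not its catalytic core. Cox4i1 was among the 8 that fell in both. It read 292, 328 and 283 CPM in untagged IP and 130, 167 and 128 CPM in tagged IP of experiment 1, beside 270.2, 384 and 310.0 CPM in tagged input. In experiment 2 untagged IP read 362, 313 and 314 CPM and tagged IP 210, 225 and 255 CPM. No tagged IP library reached an untagged one, and the log2 change was -1.27 (SE 0.24, edgeR adjusted p 8.35e-05) and -0.45 (SE 0.10, edgeR adjusted p 0.00166).
The most abundant member, Atp5b, read 2117, 2047 and 2065 CPM in untagged IP of experiment 1 and 897, 1142 and 965 CPM in tagged IP. In experiment 2 it read 1808, 1771 and 1941 CPM against 1512, 1549.5 and 1606 CPM. Its change was -1.03 (SE 0.14, edgeR adjusted p 7.63e-07) and -0.22 (SE 0.08, edgeR adjusted p 0.0393). Atp5a1 (-1.19 and -0.25) and Atp5c1 (-1.06 and -0.27), the alpha and gamma subunits of the same enzyme head, fell in both. So did Sdha (-1.15 and -0.28), the flavoprotein of complex II, the Rieske iron-sulfur protein Uqcrfs1 (-1.04 and -0.40), and the complex I iron-sulfur subunits Ndufs7 (-0.93 and -0.42) and Ndufv2 (-1.16 and -0.33).
Subunits of the core list that fell in experiment 1 alone included Ndufs1 (-0.98 there and -0.10 in experiment 2), Ndufs8 (-0.64 and -0.14) and Ndufv1 (-0.48 and 0.10) of complex I. With them fell Sdhb (-1.07 and -0.15), Sdhc (-0.55 and -0.21), Sdhd (-0.33 and -0.18), Uqcrc1 (-0.63 and -0.02), Uqcrc2 (-1.22 and -0.15), Cox5a (-0.77 and -0.17) and Cox5b (-0.52 and -0.22).

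Isoforms of a subunit differed in which were called. Of the subunit c genes, whose mature protein is the same, Atp5g3 (-1.10 and -0.47) and Atp5g2 (-0.83 and -0.41) fell in both experiments. Atp5g1 was not called in either (-0.24, SE 0.13, edgeR adjusted p 0.115, and -0.14, SE 0.09, edgeR adjusted p 0.283). It read 157, 156 and 142 CPM in tagged IP of experiment 1 against 161, 157 and 170 CPM in untagged IP, so the groups overlap, while Atp5g3 read 102, 122 and 109 CPM against 212, 199 and 199 CPM.
Cox6b1 fell in both (-1.12 and -0.38), and its isoform Cox6b2 was not called in either (0.40, SE 0.21, edgeR adjusted p 0.107, and -0.01, SE 0.15, edgeR adjusted p 0.964). Cox6b2 read 35.3, 24.0 and 21.5 CPM in tagged IP of experiment 1, overlapping the 24.5, 21.3 and 22.3 CPM of untagged IP. Cox7a2 (-1.06 and -0.44) and Cox7a2l (-0.85 and -0.30), a supercomplex factor, fell in both, and Cox7a1 fell in experiment 1 alone (-0.94, SE 0.31, edgeR adjusted p 0.0127, and -0.27, SE 0.24, edgeR adjusted p 0.437). Cox8a (-0.98 and -0.41) and Cox7b (-1.23 and -0.34) fell in both, and Cox6a1 in experiment 1 (-0.88 and -0.34). Their testis counterparts Cox8c (-1.22, SE 0.69) and Cox7b2 (-0.94, SE 0.67) had too few counts in experiment 2 to be called (edgeR adjusted p 0.205 and 0.324). Cox4i2 was not called in either (-0.78, edgeR adjusted p 0.0681, and -0.40, edgeR adjusted p 0.293). Ndufa4 fell in experiment 1 (-0.52 and -0.18), and Ndufa4l2 (-0.04, SE 0.71, and -0.15, SE 0.15) was not called. Differences between isoforms were not tested.

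The 11 members that were not called in experiment 1 were Ndufs6, Ndufb11b, Ndufaf5, Ndufs3, Atp5g1, Ndufaf4, Cox4i2, Ndufa4l2, Ndufs5, Ndufa5 and Cox6b2. Ndufa5, an accessory subunit of the peripheral arm of complex I, went the other way in experiment 2. Its tagged IP libraries read 35.8, 31.6 and 26.1 CPM against 24.0, 24.2 and 22.8 CPM in untagged IP, and in experiment 1 they read 54.1, 35.4 and 36.9 CPM against 24.0, 24.8 and 24.7 CPM. Tagged IP was above untagged IP in every library of both experiments, as was so for 2 members in each (with Ndufaf4 in experiment 1 and Ndufb11b in experiment 2). Among all genes tested this was so for 6319 of 18772 in experiment 1 and 5396 of 19778 in experiment 2. The tag-specific change of Ndufa5 was 0.30 (SE 0.21, edgeR adjusted p 0.22) in experiment 1, where tagged input was also higher, and 0.47 (SE 0.16, edgeR adjusted p 0.032) in experiment 2. The call in experiment 2 is fragile: with 1 library removed at a time it stood in 3 of 12 cases, with values from 0.34 to 0.59, and was lost with library size alone. Ndufs5, another accessory subunit, was not called (0.14 and 0.20).

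**Figure D3:**
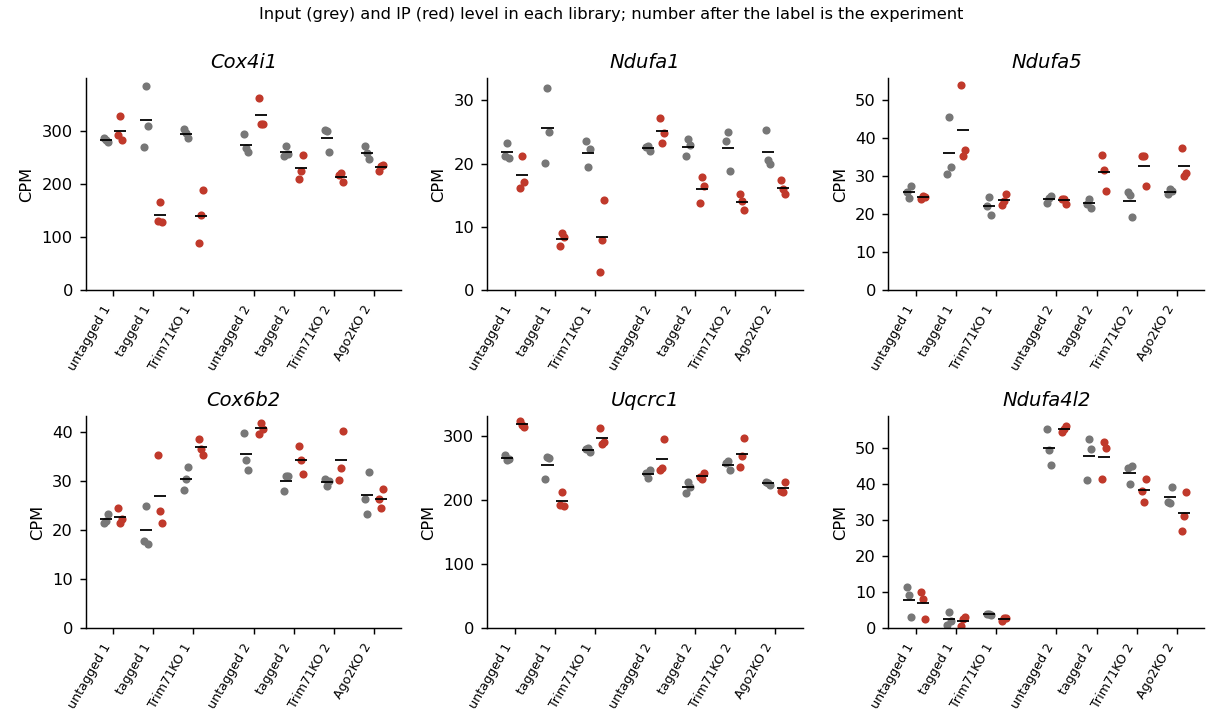
Level in each library (CPM, vertical axis) of 6 members, with input in grey, IP in red and group means as lines. The number after each label is the experiment. Cox4i1 and Ndufa1 are lower in tagged than in untagged IP, Ndufa5 is higher, Cox6b2 overlaps in experiment 1, Uqcrc1 is higher in Trim71KO IP (288 to 313 CPM) than in tagged IP (191 to 212 CPM) of experiment 1, and Ndufa4l2 differs in level between the experiments.

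The shift was larger in experiment 1. In a fit of all 42 libraries, 45 of 92 members fell further in experiment 1 than in experiment 2 and 0 fell less, where 11.1% of 18620 genes were called lower and 17.3% higher. Among the largest differences were those of Ndufa12 (-1.27, SE 0.21, edgeR adjusted p 2.81e-05), Atp5md (-1.24), Ndufa9 (-1.02), which lies at the joint of the arms of complex I, and the accessory subunit Ndufb8 (edgeR adjusted p 0.00185). Of these, Ndufa12 (0.51, a call that stood in 7 of 12 cases with 1 library removed) also had the higher bead background in experiment 1, among 4 members called for that difference, 2 higher and 2 lower, where 4.03% of all genes were called higher and 1.48% lower. The counts rest on single libraries to some degree. In experiment 1 they ran from 77 (without tagged input replicate 2) to 82, in experiment 2 from 33 (without untagged input replicate 2) to 51, and the difference from 30 to 59. With library size alone, 80 members fell in experiment 1, 75 in experiment 2 and 24 in the difference.

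Members in every class of gene length fell. The length is the gene length the authors give, which can exceed that of the mRNA present. The classes may therefore not sort mRNAs by their length. Most members have a short gene length, and over all genes such genes had lower tag-specific enrichment in experiment 1. The medians were -0.65 for 2708 genes under 1 kb, -0.35 for 2714 of 1 to 2 kb, -0.11 for 5261 of 2 to 4 kb and 0.17 for 8089 of 4 kb and over. The members' medians in the same classes were -1.06 (21 genes), -0.96 (38), -1.10 (22) and -0.98 (11), with 18, 33, 20 and 10 genes called lower. Of all genes in these classes, 36.5%, 33.8%, 29.5% and 24.2% were called lower. In experiment 2 the medians of all genes were -0.15, -0.11, -0.07 and 0.07, and those of the members -0.40, -0.30, -0.22 and -0.22. The members' median thus lay below that of all genes in each class of gene length in both experiments. The part of mRNA length was not tested.

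**Figure D4:**
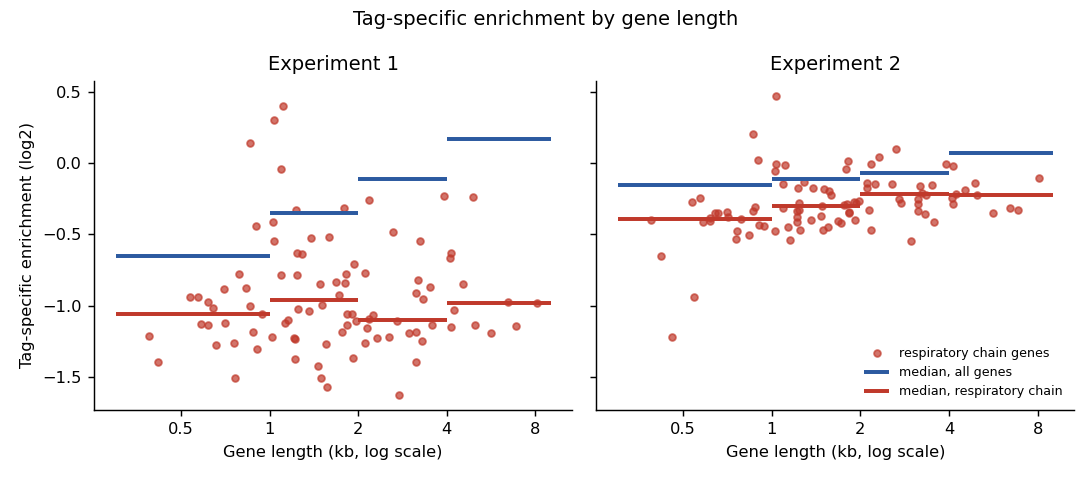
Tag-specific enrichment (log2, vertical axis) of each member against gene length in kilobases (log scale) in experiment 1 (left) and experiment 2 (right), with medians of all genes in blue and of the members in red for 4 classes of length. The blue medians rise with length from -0.65 to 0.17 in experiment 1, and the red ones stay between -1.10 and -0.96.

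Other lists show where the members stand. Of 103 cytosolic ribosomal protein genes, which also make short and abundant mRNAs, 92 fell and 6 rose in experiment 1 (median -1.16), and 69 fell and 4 rose in experiment 2 (-0.34). Of the 13 mRNAs that mitochondrial DNA encodes, which are made inside the organelle, 12 fell in experiment 1 (-1.38) and 11 in experiment 2 (-0.79), with 0 higher in either. No difference between lists was tested.

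Few members were called for a change in enrichment in the libraries labelled Trim71KO. Trim71-dependent enrichment, the IP to input ratio of Trim71KO cells against that of tagged cells, was called higher for 1 of 92 members in experiment 1, where 0.272% of all genes were called higher and 3.47% lower, and lower for 0 (0 lower also at an unadjusted p under 0.05 and with DESeq2). In experiment 2 it was called lower for 1 of 94, where 0.738% of all genes were and 0.753% were called higher, and higher for 0 (1 higher at an unadjusted p under 0.05, and 0 with DESeq2). The median member lay at 0.06 in experiment 1 and -0.20 in experiment 2, against -0.04 and 0.01 for all genes. In experiment 2, Trim71KO IP libraries held 8553 to 9032 CPM of member mRNA, below every tagged IP library (9207 to 9681 CPM). Trim71KO inputs there held 10175 to 11036 CPM, beside 9908 to 10511 CPM in tagged input. In experiment 1 the IP groups overlapped, at 5776 to 8066 CPM in Trim71KO and 6288 to 7199.5 CPM in tagged cells.
The member called in experiment 1 was Uqcrc1 (0.46, SE 0.11, edgeR adjusted p 0.0212). It read 313, 288 and 291 CPM in Trim71KO IP and 192, 212 and 191 CPM in tagged IP, beside 280, 282 and 275 CPM and 234, 267 and 266 CPM in the inputs. In experiment 2 its change was -0.01 (SE 0.09, edgeR adjusted p 0.973). The call was lost in the fit of these genotypes alone, with a block within genotype and without tagged IP replicate 3. There were 3 calls without tagged input replicate 1, 2 without tagged IP replicate 2, and 12 members were called higher without Trim71KO IP replicate 1, whose members lay lowest of all libraries (median -1.26 against untagged input).
The member called in experiment 2 was Ndufs6, a zinc-binding subunit of complex I (-0.42, SE 0.11, edgeR adjusted p 0.0431). It read 45.3, 42.5 and 44.7 CPM in Trim71KO IP and 54.4, 55.5 and 51.4 CPM in tagged IP, so the groups do not overlap, with inputs of 57, 62.6 and 47.7 CPM and 48.1, 55.0 and 49.2 CPM. The count was 3 and 5 with the replicate number as a block within fraction or within genotype, 12 with DESeq2, and ran from 0 to 10 when a library was left out (10 without Trim71KO input replicate 3 or tagged IP replicate 1, 5 without Trim71KO IP replicate 1, 3 without tagged input replicate 2, 2 without Trim71KO IP replicate 3, and 0 without tagged input replicate 1 or 3, Trim71KO input replicate 1 or 2, tagged IP replicate 2). At an unadjusted p under 0.05, 39 members were lower in experiment 2. The difference between the experiments was called for 0 members by edgeR (0.0967% of all genes, all lower; 15 members higher and 0 lower at an unadjusted p under 0.05; DESeq2 was not run on the difference), and for 19 without Trim71KO IP replicate 1, 4 without tagged input replicate 1 and 1 without tagged IP replicate 2 of experiment 1.

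Ago2-dependent enrichment was called for 0 of 94 members by edgeR, where 0.384% of all genes were called higher and 3.77% lower. At an unadjusted p under 0.05, 1 member was higher and 2 were lower, and DESeq2 called 1 lower. The median member lay at -0.01. Tagged IP libraries held 9207 to 9681 CPM of member mRNA and Ago2KO IP libraries 8823 to 9386 CPM, so the groups overlap. Cox4i1, for example, read 224, 235 and 237 CPM in Ago2KO IP, within the 210 to 255 CPM of tagged IP, and Ndufa1 read 17.4, 16 and 15.2 CPM against 13.8, 17.9 and 16.4 CPM.

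Set directly against Ago2KO cells, the Trim71KO cells had the lower enrichment for 12 of 94 members and the higher for 0 (edgeR; 1 at an unadjusted p under 0.05, 0 with DESeq2), where 2.86% of all genes were called lower and 8.94% higher. The largest change called was that of Atp5e, the epsilon subunit of ATP synthase (-0.53, SE 0.13, edgeR adjusted p 0.00741). It read 37.3, 42.3 and 42.8 CPM in Trim71KO IP and 42.7, 50.9 and 53.7 CPM in Ago2KO IP, with inputs of 66.6, 80.9 and 60.9 CPM and 58.2, 56.6 and 58.2 CPM. Only at 42.7 and 42.8 CPM do the IP groups touch, and every Trim71KO input was above every Ago2KO input. Cox7a2l (-0.38), the complex I subunit Ndufa13 (-0.38), the ATP synthase subunit Atp5j2 (-0.38) and the complex III subunit Uqcr11 (-0.38) followed, with calls that stood in 10, 9, 6 and 9 of 12 cases with 1 library removed. Ribosomal protein genes again went along, with 44 of 103 lower and 4 higher. The count of members depended on the fit, at 24 with a block within genotype, 21 with DESeq2 and 3 in the fit of these genotypes alone. It ran from 3 (without Trim71KO input replicate 2 or Ago2KO IP replicate 3) to 31 (without Trim71KO input replicate 3), with 5 without Ago2KO input replicate 3, 6 without Trim71KO input replicate 1, and 24 when replicate 1 of the Trim71KO IP was left out.

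Input RNA shows whether the genes themselves change. In bulk RNA, fewer cells of a type and less RNA per cell cannot be told apart. Tagged against untagged input, 2 of 92 members rose and 1 fell in experiment 1, where 5.69% of all genes were called higher and 4.87% lower. These were the assembly factor Ndufaf4 (0.69, SE 0.10, edgeR adjusted p 0.000132), Ndufa5 (0.48, SE 0.14, edgeR adjusted p 0.0338) and Ndufa4l2 (-1.68, SE 0.47, edgeR adjusted p 0.0242). Ndufaf4 read 45.0, 49.3 and 42.8 CPM in tagged input and 29.7, 27.2 and 27.8 CPM in untagged input. Ndufa4l2 read 0.985, 4.53 and 1.93 CPM against 11.3, 9.24 and 3.26 CPM, so its groups overlap. The call of Ndufaf4 stood on removal of any 1 of the 6 libraries, while those of Ndufa5 (0.29 to 0.63, lowest without tagged input replicate 2) and Ndufa4l2 (-2.42 to -1.28) each stood in 2 of 6 cases. Ndufa5 was also not called with library size alone, nor Ndufa4l2 with DESeq2. The median member lay at 0.15, and the mitochondrially encoded mRNAs at 1.14, with 12 of 13 higher. The count was 20 without tagged input replicate 1 and 1 without untagged input replicate 1 or 2. In experiment 2 edgeR called 0 of 94 members (0.809% of all genes higher and 0.581% lower; 3 members higher and 7 lower at an unadjusted p under 0.05; 0 with DESeq2).

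In input of Trim71KO against tagged cells the experiments differed in direction. In experiment 1, 2 of 92 members rose and 19 fell, where 16.5% of all genes were called higher and 17.4% lower. In experiment 2, 15 of 94 rose and 2 fell, where 13.5% were called higher and 13.7% lower. The downward calls of experiment 1 and the upward calls of experiment 2 were thus near the share among all genes, and calls in the other direction were fewer. Ndufv3, a complex I accessory subunit, was the member called in the same direction in both (0.29, SE 0.11, edgeR adjusted p 0.0352, and 0.24, SE 0.07, edgeR adjusted p 0.0123). It read 93.7, 94.5 and 93.6 CPM in Trim71KO and 67.3, 83.6 and 78.8 CPM in tagged input of experiment 1, and 112, 117 and 105 CPM against 91.4, 101 and 91.5 CPM in experiment 2. This shared call is weakly held: it stood in 1 of 6 cases with 1 library removed in experiment 1 (0.19 without tagged input replicate 1, 0.37 without replicate 2) and in 3 of 6 in experiment 2, and it was lost in the fit of these genotypes alone in experiment 1 and with library size alone in experiment 2.
Those that fell most in experiment 1 were Ndufa5 (-0.71, SE 0.15, edgeR adjusted p 0.000623), Uqcrh (-0.64), Ndufaf4 (-0.64), Atp5md (-0.63) and Ndufb1 (-0.60). Uqcrh read 66.7, 66.3 and 62.2 CPM in Trim71KO and 83.4, 122.5 and 98.8 CPM in tagged input, with no overlap, but 84.7, 89.3 and 73.2 CPM in untagged input. Cox6b2 rose (0.61, SE 0.15, edgeR adjusted p 0.00235), from 17.8, 24.9 and 17.2 CPM to 28.1, 30.4 and 32.9 CPM. The count of 21 became 7 without tagged input replicate 2, 35 without tagged input replicate 1, and 13 without Trim71KO input replicate 2 or 3.
In experiment 2 the largest rises were those of Ndufb4c (0.44) and Ndufb4 (0.42), Sdhb (0.39, SE 0.08, edgeR adjusted p 0.000772), Ndufb9 (0.38) and Cox7a2l (0.36). Sdhb, the iron-sulfur subunit of complex II, read 97.8, 105 and 97.1 CPM in Trim71KO and 74.8, 80.2 and 73.1 CPM in tagged input, without overlap. In experiment 1 it read 94.8, 99.3 and 93.0 CPM against 74.9, 95.7 and 83.5 CPM and was not called. Cox4i2 fell (-0.95, SE 0.20, edgeR adjusted p 0.000735), from 6.02, 7.31 and 6.39 CPM to 4.42, 3.22 and 2.54 CPM, and the rare Cox8c fell with it (-2.35, SE 0.59, edgeR adjusted p 0.0037), from 0.592, 1.12 and 0.968 CPM to 0.295, 0.211 and 0 CPM. With library size alone 6 rose and 3 fell, and the count was 9 without Trim71KO input replicate 2 and 11 without tagged input replicate 3.

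**Figure D5:**
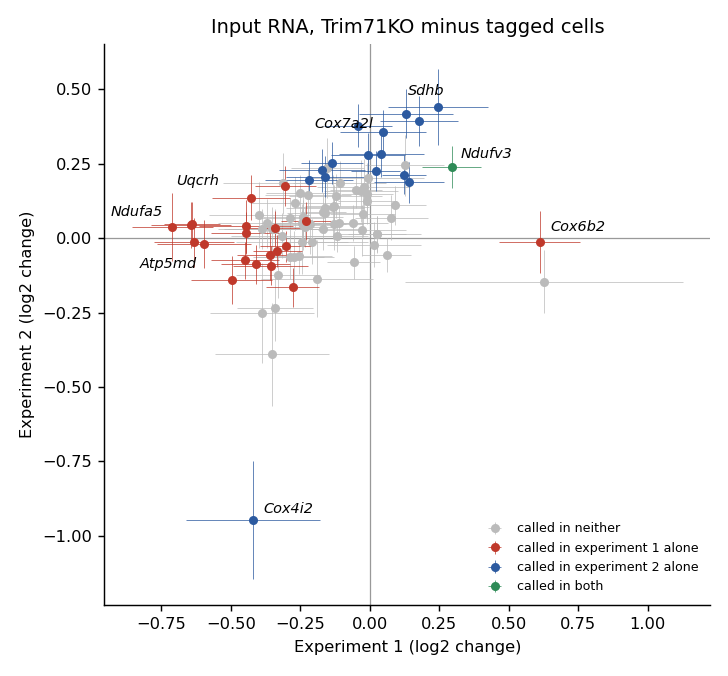
Change of input RNA in the libraries labelled Trim71KO against tagged cells (log2, with standard errors as bars) in experiment 1 (horizontal axis) and experiment 2 (vertical axis) for the 92 members tested in both. Red and blue mark members called in experiment 1 or 2 alone, green marks Ndufv3, called in both, and grey the rest. The red points lie mostly to the left and the blue ones mostly at the top.

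The difference between the experiments was called for 17 members, 1 higher and 16 lower in experiment 1, where 10.6% and 12.2% of all genes were. The former was Cox6b2 (0.63, SE 0.18, edgeR adjusted p 0.0117) and the latter were led by Ndufa5 (-0.74), Uqcrh (-0.68), Ndufaf4 (-0.68), Atp5md (-0.62) and Ndufb1 (-0.58). That count was 7 without tagged input replicate 2 of experiment 1 and 35 without replicate 1, 9 without Trim71KO input replicate 3 of experiment 1, and 8 to 10 without a single library of tagged input replicates 1 or 3 or Trim71KO input replicates 1 or 2 of experiment 2.
Primitive endoderm and fibroblast markers differed between the same libraries in both experiments, while neural markers overlapped. In experiment 1 the 6 primitive endoderm markers (Gata6, Gata4, Sox17, Sox7, Pdgfra, Foxa2) summed to 40.8 to 49.4 CPM in tagged and 9.51 to 10.9 CPM in Trim71KO input. In experiment 2, 5 of the 6 were present and summed to 15.4 to 16.6 and 6.10 to 8.02 CPM. Of the fibroblast markers only Col1a1 and Thy1 (2 of 5) were found, and Col1a2, Col3a1 and Postn were not. These 2 genes summed to 22.6 to 24.5 and 58.0 to 61.8 CPM in experiment 1 and to 34.2 to 35.8 and 49.5 to 51.9 CPM in experiment 2. Against these, the stem cell markers summed to 6969 to 8014 CPM in tagged and 7962 to 8135 CPM in Trim71KO input of experiment 1. Whether these markers stand for other cells was not tested. Nor was the part of such cells, or of tagged input replicate 2, in the members' changes.

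In input of Ago2KO against tagged cells 0 of 94 members rose (edgeR; 1 at an unadjusted p under 0.05, and 0 with DESeq2) and 2 fell, where 4.38% of all genes were called higher and 2.57% lower. These were Ndufa4l2 (-0.39, SE 0.11, edgeR adjusted p 0.0228) and Ndufc2 (-0.22, SE 0.07, edgeR adjusted p 0.0414). Ndufa4l2 read 35.1, 34.8 and 39.3 CPM in Ago2KO and 41.2, 52.6 and 49.7 CPM in tagged input, without overlap. The count was 0 or 1 in each fit that left out 1 of the 6 libraries compared, and 0 in the fit of these genotypes alone.
Trim71KO against Ago2KO input gave more calls, with 24 of 94 members higher and 2 lower, where 13.2% of all genes were called higher and 15.1% lower. The largest rise was that of the rare Cox7b2 (1.65, SE 0.42, edgeR adjusted p 0.00366), at 1.03, 1.37 and 1.07 CPM against 0.390, 0.362 and 0.341 CPM. Ndufb4c (0.44), Cox7a2l (0.43), the assembly factor Ndufaf1 (0.39) and Ndufb9 (0.37) followed, and Cox8c (-1.73) and Ndufb11b (-0.48) fell. With 1 library removed these downward calls stood in 1 of 6 cases for Cox8c (-2.38 to -1.16) and in 2 of 6 for Ndufb11b (-0.63 to -0.33), and neither stood in the fit of these genotypes alone. The count ran from 18 to 31 when a library was left out.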

How the data were processed

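The authors deposited, per experiment, a table of read counts per gene, RPKM and gene length. Per the submitters' processing notes STAR 2.7.3a, bcl2fastq 2.20 and GRCm38/mm10 were used, and the length column names QuasR, per the file headers. The counting tool and annotation are not given in the sources used here, so reads shared with near-identical copies may be split. The authors' RPKM values served only to rank genes by level.

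Counts were fitted with edgeR 4.0.16 (quasi-likelihood F test, TMM, filterByExpr) in R 4.3.3, all groups of an experiment in one fit, with Benjamini-Hochberg adjustment over all genes and a threshold of 0.05. CPM are TMM-scaled. Differences between experiments came from a fit of all 42 libraries. Groups came from sample titles and experiments from sample descriptions. The named genes were the 5 members with the largest called change in each direction and those with the largest smaller change where both experiments were called. Subunits listed as core, isoforms and exceptions were named besides. Alternatives were RLE factors, library size alone, DESeq2 1.42.0, no filter, the genotypes compared alone, a replicate block, and leaving out each library. The replicate numbers of experiment 2 pair tagged with Trim71KO libraries (r 0.18 to 0.33 in every pair), and tagged IP with tagged input (0.10 to 0.18), while in every other comparison at least 1 pair was at or under 0.1. The fit was also run on simulated counts in which a small set of genes changed, and only in tagged IP. The real groups differ more broadly, so that run does not check the scaling. The members and lists were chosen with earlier results of these data known, and the mitochondrially encoded list was chosen after the files were seen. A result for 1 member is not reported here, though the counts include it.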

Additional observations from a re-analysis of the deposited data

Results flagged for a closer look

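In the fit of all 42 libraries, the difference between experiments was called by edgeR for 45 members in tag-specific enrichment, 17 in input of Trim71KO against tagged cells and 4 in bead background. Among the last, bead background was higher in experiment 1 for Ndufa12 (0.51) and lower for Ndufs7 (-0.41) and Ndufa4 (-0.37), calls that stood in 7, 6 and 2 of 12 cases with 1 library removed, where 4.03% of all genes were called higher and 1.48% lower. Groups of 3 libraries are too small for a search for outlying samples.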

How the results depend on the processing

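With library size alone the counts of members called were 59 for bead background in experiment 1 and 1 in experiment 2, 2 and 0 for Trim71-dependent enrichment, 9 for Trim71KO input in experiment 2, 1 for Ago2KO input, and 24, 6 and 52 for the differences between experiments in tag-specific enrichment, Trim71KO input and bead background. The bead value of Ndufv1 in experiment 1 became -0.10. With the genotypes compared alone the counts were 34 for bead background, 0 for Trim71-dependent enrichment, 13 for tagged input and 11 for Trim71KO input in experiment 1, and 0 for Trim71-dependent enrichment, 0 for Ago2KO input and 3 for Trim71KO against Ago2KO enrichment in experiment 2. With DESeq2 they were 11, 3 and 6 for bead background, Trim71-dependent enrichment and tagged input in experiment 1, and 12, 12, 1 and 21 for bead background, Trim71-dependent, Ago2-dependent and Trim71KO against Ago2KO enrichment in experiment 2. RLE factors gave 6 for tagged input in experiment 1, and no filter gave 4 for bead background and 2 for Trim71-dependent enrichment in experiment 2. With the replicate block within fraction the counts in experiment 2 were 5 for bead background and 3 for Trim71-dependent enrichment. With the replicate block within genotype they were 8, 5 and, for Trim71KO against Ago2KO enrichment, 24, and 0 for Trim71-dependent enrichment in experiment 1. The block moved no other count by over 1.5 times (tag-specific enrichment in experiment 2: 55 and 54 calls).

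Leaving out a library gave 4 to 5, 77 to 82, 0 to 12, 1 to 20 and 7 to 35 calls in experiment 1 for bead background, tag-specific enrichment, Trim71-dependent enrichment, tagged input and Trim71KO input. In experiment 2 it gave 0 to 5, 33 to 51, 0 to 10, 3 to 31, 9 to 25, 0 to 1 and 18 to 31 for bead background, tag-specific, Trim71-dependent and Trim71KO against Ago2KO enrichment, and for input of Trim71KO, of Ago2KO and of Trim71KO against Ago2KO. The differences gave 30 to 59, 0 to 19, 7 to 35 and 1 to 4 for tag-specific enrichment, Trim71-dependent enrichment, Trim71KO input and bead background. Of 72 results for single genes, 42 kept their direction and side of the threshold in every fit run and 1 reversed. The cause of these changes was not tested.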

Other observations

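Other genes of the respiratory chain moved in both directions in tag-specific enrichment. The list of 47 genes holds assembly factors, carriers, regulators and Cyc1, a complex III subunit whose symbol the rule does not take. Of the 47 genes, 46 were tested. In experiment 1, 13 rose and 21 fell (median -0.26), where 28.1% of all genes were called higher and 28.8% lower. In experiment 2, 11 rose and 4 fell (-0.02), where 18.9% were called higher and 8.77% lower. The rises of experiment 1 and the falls of experiment 2 were thus near the share among all genes. Ppargc1b, a coactivator of mitochondrial gene expression, rose in both (2.58, SE 0.26, and 1.78), as did the complex I assembly factor Tmem126b (1.78 and 1.12). Cox20 (-1.53) and Cox17 (-1.33), which serve complex IV assembly, fell most in experiment 1, and Lyrm7 (-0.72), which serves complex III, and cytochrome c, Cycs (-0.47), in experiment 2. In input of Trim71KO against tagged cells Ppargc1b also rose in both experiments (1.02 and 0.55). Its Ago2-dependent enrichment fell (-0.61), as did that of the complex IV assembly factor Coa3 (-0.69). These were the 2 genes of the list called in that comparison, where 0.384% of all genes were called higher and 3.77% lower.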
